A study of Mus musculus with 32 samples.

Results

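Ribosome biogenesis and MYC target genes are described here through 46 genes chosen by name. They comprise 4 genes of RNA polymerase I transcription, 10 of small nucleolar ribonucleoproteins (snoRNPs) and rRNA modification, 9 of small-subunit assembly, 14 of large-subunit assembly, 4 multifunctional nucleolar proteins, and 5 genes of growth metabolism and DNA repair. All 46 were found by symbol among the 56246 gene rows of the count table, of which 55144 have a name in GENCODE M21. All 46 also passed the filter on low counts in LSK and in GMP cells, so no member is missing from the counts below.

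RNA was sequenced from LSK and GMP cells sorted from the bone marrow of C57BL/6 transgenic FLT3-ITD mice. LSK cells lack lineage markers and carry Sca-1 and c-Kit, which enriches for stem cells and multipotent progenitors. GMP are granulocyte-macrophage progenitors, further along the myeloid lineage. FLT3-ITD is a form of the cytokine receptor FLT3, found in acute myeloid leukemia, that signals without its ligand. The mice had received 1 of 4 treatments in vivo: Combination (AC220 together with Lys05), AC220 alone, Lys05 alone or Vehicle. AC220 is quizartinib, an inhibitor of the FLT3 kinase, and Lys05 is a chloroquine derivative that blocks lysosomes and thereby autophagy. Each of the 8 groups had 4 biological replicates, 32 libraries in all. Every group carries FLT3-ITD, Vehicle included, so the comparisons concern treatment of mutant cells and none involves normal cells. The labels name neither the promoter that drives the transgene nor doses, length of treatment, age or sex.

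Ribosome production begins in the nucleolus, where RNA polymerase I copies the rRNA genes into a long precursor. Box C/D and box H/ACA snoRNPs methylate and pseudouridylate that precursor, and successive sets of assembly factors cut it and fold it into the small and large subunits. MYC, bound to DNA with its partner MAX at the E-box CACGTG, is known for driving many of these genes together with genes of nucleotide and polyamine synthesis, and growth factor receptors such as FLT3 act upstream of MYC in blood progenitors.

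The libraries held 35668279 to 55867441 gene counts. Under Vehicle, Ly6a and Mpo separated the sorted populations as labelled. Ly6a, which encodes Sca-1, had 56.1 to 124 counts per 1000000 gene counts (CPM) in LSK and 0.541 to 2.67 CPM in GMP. Mpo, a granule enzyme of myeloid progenitors, had 673 to 1001 CPM in LSK and 10064 to 13384 CPM in GMP. The 10 stem cell markers summed to 436 to 442 CPM in LSK and 121 to 214 CPM in GMP. Kit, which encodes c-Kit, overlapped, at 35.4 to 56.8 CPM in LSK and 29.9 to 54.4 CPM in GMP. Dendritic cell markers summed higher in LSK (13680 to 53405 CPM) than in GMP (3272 to 12777 CPM). Library composition and marker levels moved with the treatments, and their part in the results below was not tested. Genes with a coding length under 1000 bp took 44.48 to 48.78% of protein-coding counts in Combination LSK libraries, 41.96 to 44.07% with AC220, 72.88 to 77.18% with Lys05 and 70.35 to 77.01% with Vehicle. The summed level of 9 dendritic cell markers, none at 0 in every library of a group, was 574 to 3980 CPM with Combination, 3226 to 13586 CPM with AC220, 8049 to 49686 CPM with Lys05 and 13680 to 53405 CPM with Vehicle. The 8 T and NK cell markers summed to 456 to 595, 269 to 487, 1699 to 2276 and 1301 to 1999 CPM in those groups, with Cd3e at 0.214 CPM or less, and the 10 stem cell markers to 869 to 1019, 711 to 1090, 516 to 563 and 436 to 442 CPM. Of 11 marker lists, 7 had sums that did not overlap between AC220 and Vehicle in LSK: beside these, mature neutrophil (1046 to 1974 CPM with AC220 and 2914 to 7486 CPM with Vehicle), B cell (33 to 50 and 99.8 to 158 CPM) and basophil and mast cell markers (66.5 to 85.8 and 134 to 218 CPM) were lower, and stroma and endothelium markers higher (35.7 to 45.9 and 12.5 to 20.2 CPM). With Combination in LSK 6 lists did not overlap with Vehicle, macrophage markers among them (31.2 to 47.7 CPM with Combination and 5.12 to 20.1 CPM with Vehicle). In GMP no list was apart with AC220, and with Combination 3 were: dendritic (188 to 1375 CPM with Combination and 3272 to 12777 CPM with Vehicle), macrophage (99.2 to 1686 and 13 to 41.6 CPM) and granulocyte-monocyte progenitor markers (28583 to 39740 and 46495 to 54945 CPM). In a bulk sample of sorted cells, fewer cells of a type and less RNA per cell cannot be told apart. Among GMP libraries, the median correlation of a library with the other 3 of its group was 0.676 to 0.792 with Combination and 0.774 to 0.795 with AC220, lower than the 0.86 to 0.964 with Lys05, and it was 0.812 to 0.923 with Vehicle. In LSK it was 0.97 to 0.987, 0.958 to 0.987, 0.915 to 0.943 and 0.888 to 0.92 in the same order.

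In LSK cells with AC220, some ribosome biogenesis genes rose and others fell, as did the genes tested at large. Against Vehicle, 20 of the 46 rose and 13 fell (edgeR quasi-likelihood test, adjusted p under 0.05 over all genes tested). These are 43.5% and 28.3% of the members, against a background of 29.4% of 15730 genes tested that rose and 25.5% that fell. The median log2 fold change of the members was 0.15, beside 0.09 for all genes tested, and the single values ran from -3.23 to 3.59. With Combination against Vehicle, 21 members rose and 11 fell (45.7% and 23.9%), against a background of 28.3% and 23.6%. The median was 0.32 beside 0.06 for all genes. In both comparisons the share that fell was close to that of all genes tested. The AC220 and Combination comparisons share the 4 Vehicle libraries, so their likeness is no separate evidence. The members' share of all gene counts was 1.194 to 1.3% with Combination, 1.03 to 1.156% with AC220, 1.115 to 1.171% with Lys05 and 0.958 to 1.151% with Vehicle.

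**Figure D1:**
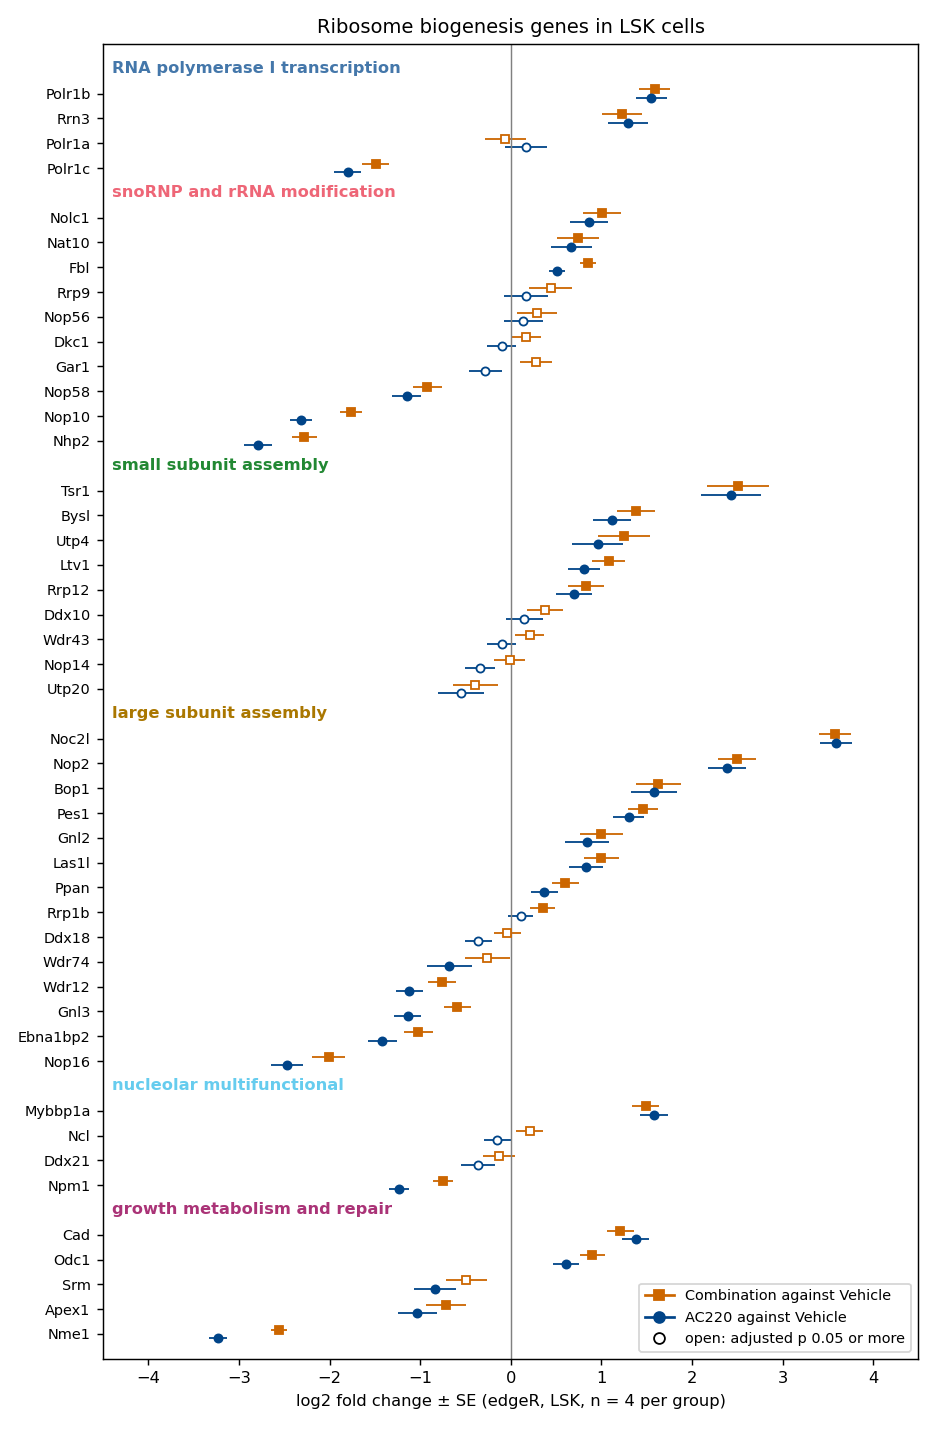
Log2 fold changes with standard errors of all 46 genes in LSK cells, grouped by role, for Combination against Vehicle (squares) and AC220 against Vehicle (circles), 4 libraries per group; open symbols have an adjusted p of 0.05 or more. Values run from -3.23 (Nme1, AC220) to 3.59 (Noc2l, AC220), and every role except small-subunit assembly holds genes that fell beside genes that rose, an exception that ends once length and GC are modelled.

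By role, the small-subunit factors were the ones with no member that fell. Of these 9, 5 rose with AC220 and 5 with Combination, with medians of 0.70 and 0.83. Of the 14 large-subunit factors, 7 rose and 5 fell with AC220, and 8 rose and 4 fell with Combination. The 10 snoRNP and rRNA modification genes gave 3 in each direction under both treatments. The 4 RNA polymerase I genes gave 2 that rose and 1 that fell, again under both. The nucleolar proteins gave 1 in each direction, and of the 5 growth genes 2 rose and 3 fell with AC220, against 2 and 2 with Combination. The small-subunit pattern depended on the model. With transcript length and GC content modelled the medians were 0.03 and 0.28. Nop14, at -0.97 with AC220 and -0.60 with Combination, and Utp20, at -0.72 with AC220, were then called lower (adjusted p = 1.2e-04, 0.00655 and 0.00342).

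The promoters of the members show which of them carry the MYC-MAX E-box. RefSeq promoter entries, 250 bases before and 50 after the transcription start on GRCm38.p6, were matched by symbol for 40 of the 46 genes. The motif searched was CACGTG, which reads the same on both strands. It was present in 11 of the 40 members (27.5%), against 2187 of 27025 genes in the whole table (8.09%). Of the members that rose with AC220 in LSK, 7 of the 16 with an entry had the motif; of those that fell, 2 of 11 did; and of those that passed in neither direction, 2 of 13 did. The holders were Nop2, Utp4, Ltv1, Pes1, Mybbp1a, Tsr1 and Rrn3 among the genes that rose, Nme1 and Apex1 among those that fell, and Utp20 and Wdr43. A match only describes these letters, and is no measurement of MYC binding. The 5 promoters below belong to the member that fell furthest (Nme1), the member with the most motifs (Apex1), a pair that rose and hold it (Nop2 and Tsr1), and the member that rose furthest, whose window lacks it (Noc2l); capitals mark CACGTG, and each sequence is given on the strand named. The end of each window was found in an annotated transcript of its gene in that orientation, except for Nop2, where it was not found. Nme1 has a second entry (chr11:93967976-93968275, minus strand), which also holds the motif and is not shown.
Nme1, chr11:93968223-93968522, minus strand: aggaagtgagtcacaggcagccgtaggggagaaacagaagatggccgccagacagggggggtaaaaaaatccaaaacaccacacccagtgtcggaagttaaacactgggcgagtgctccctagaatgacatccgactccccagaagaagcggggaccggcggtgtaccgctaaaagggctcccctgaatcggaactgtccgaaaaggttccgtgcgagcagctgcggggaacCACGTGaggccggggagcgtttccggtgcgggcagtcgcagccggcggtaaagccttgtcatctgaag
Apex1, chr14:50924699-50924998, plus strand: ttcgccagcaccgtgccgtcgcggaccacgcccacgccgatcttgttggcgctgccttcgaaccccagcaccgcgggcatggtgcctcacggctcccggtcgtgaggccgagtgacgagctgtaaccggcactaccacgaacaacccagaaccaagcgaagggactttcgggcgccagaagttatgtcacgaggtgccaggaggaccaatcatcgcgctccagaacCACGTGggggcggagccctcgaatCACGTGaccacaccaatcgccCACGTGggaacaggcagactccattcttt
Nop2, chr6:125131633-125131932, plus strand: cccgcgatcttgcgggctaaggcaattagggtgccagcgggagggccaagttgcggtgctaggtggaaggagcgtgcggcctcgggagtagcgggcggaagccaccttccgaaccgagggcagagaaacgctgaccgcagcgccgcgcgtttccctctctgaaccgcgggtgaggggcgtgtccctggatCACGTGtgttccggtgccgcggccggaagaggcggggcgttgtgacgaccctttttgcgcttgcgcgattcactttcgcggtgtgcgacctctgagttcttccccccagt
Tsr1, chr11:74897830-74898129, plus strand: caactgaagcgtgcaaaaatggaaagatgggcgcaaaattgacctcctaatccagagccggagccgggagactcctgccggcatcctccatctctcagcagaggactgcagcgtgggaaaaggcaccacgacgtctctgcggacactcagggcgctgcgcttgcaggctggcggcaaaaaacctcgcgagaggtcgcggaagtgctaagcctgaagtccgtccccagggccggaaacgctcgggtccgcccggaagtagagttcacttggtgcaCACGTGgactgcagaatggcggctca
Noc2l, chr4:156235765-156236064, plus strand: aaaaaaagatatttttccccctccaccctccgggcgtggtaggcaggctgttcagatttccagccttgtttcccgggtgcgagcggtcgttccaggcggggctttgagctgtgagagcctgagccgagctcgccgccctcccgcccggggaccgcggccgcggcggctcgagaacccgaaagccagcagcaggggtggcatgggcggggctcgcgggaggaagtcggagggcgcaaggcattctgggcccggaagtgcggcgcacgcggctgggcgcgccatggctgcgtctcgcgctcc
Both directions of change thus occurred with and without the motif: Nme1 and Apex1 fell with 1 and 3 copies in the windows shown, and Noc2l rose with none in its window.

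Transcription of rRNA depends on RNA polymerase I and its initiation factor. Polr1b, which encodes a catalytic-core subunit, had 77.6, 106, 121 and 109 CPM with Combination, 76.6, 110, 111 and 107 CPM with AC220, 38.5, 30.8, 25.7 and 36.4 CPM with Lys05 and 29.5, 35.9, 33.9 and 38.3 CPM with Vehicle in LSK. Its log2 fold change was 1.59 ± 0.17 (SE; adjusted p = 1.0e-06) for Combination against Vehicle and 1.55 ± 0.17 (SE; adjusted p = 1.1e-06) for AC220 against Vehicle. Every Combination and AC220 library was above every Lys05 and Vehicle library, and replicate 1 of both treatments was the lowest of its group. Rrn3, the factor that brings the polymerase to the rRNA promoter and 1 of the E-box holders, had 28.9, 39.7, 45.3 and 42.5 CPM with Combination, 33.5, 45.6, 39 and 44.4 CPM with AC220, 17.6, 13.5, 9.38 and 19.1 CPM with Lys05 and 21.3, 14.2, 15 and 16 CPM with Vehicle. Here too the groups did not overlap, at 1.23 ± 0.22 (SE; adjusted p = 2.0e-04) with Combination and 1.29 ± 0.22 (SE; adjusted p = 1.2e-04) with AC220.

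Polr1c, a smaller subunit that RNA polymerase III shares, went the other way, with 72.4, 86.5, 83.3 and 74.9 CPM with Combination, 47.7, 67.5, 74.5 and 66.6 CPM with AC220, 243, 268, 273 and 254 CPM with Lys05 and 188, 199, 276 and 228 CPM with Vehicle. It fell, at -1.49 ± 0.15 with Combination and -1.80 ± 0.15 with AC220 on the log2 scale (adjusted p = 2.8e-07 and 2.5e-08), with no overlap between the treated libraries and the rest. Polr1a, the largest subunit, had 51.8, 55.6, 49.8 and 54.9 CPM with Combination, 75.4, 58.8, 55.5 and 58.8 CPM with AC220, 57.7, 49.2, 36.3 and 42.3 CPM with Lys05 and 31.2, 86.4, 56 and 47 CPM with Vehicle. The 4 groups overlapped, the Vehicle libraries alone spanned the whole range, and the AC220 fold change of 0.17 ± 0.23 did not pass the test (adjusted p = 0.559). Subunits of the same enzyme therefore differed in direction in the same libraries.

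Among the snoRNP genes, the 4 core proteins of the box H/ACA particle, which guides pseudouridylation and also stabilises telomerase RNA, did not move together. Nhp2 (chromosome 11, 51619735 to 51623714, GRCm38) had 341, 419, 422 and 363 CPM in the Combination libraries, 250, 255, 319 and 262 in the AC220 libraries, 2326, 2012, 1810 and 1827 in the Lys05 libraries and 1556, 1615, 2346 and 2005 in the Vehicle libraries. Nop10, the smallest of the 4 proteins, had 524, 473, 453 and 386 CPM in the Combination libraries, 277, 298, 365 and 309 in the AC220 libraries, 1767, 1355, 1537 and 1403 in the Lys05 libraries and 1391, 1579, 1626 and 1633 in the Vehicle libraries. For both genes every Combination library lay above every AC220 library, and both groups lay far below all Lys05 and Vehicle libraries. The log2 fold change of Nhp2 was -2.28 ± 0.14 (SE; adjusted p = 1.6e-09) with Combination and -2.79 ± 0.15 (SE; adjusted p = 1.2e-10) with AC220. That of Nop10 was -1.76 ± 0.12 (SE; adjusted p = 4.8e-09) with Combination and -2.32 ± 0.12 (SE; adjusted p = 1.4e-10) with AC220.

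Dkc1, the pseudouridine synthase of the same particle, had 298, 370, 330 and 336 CPM with Combination, 228, 293, 321 and 258 CPM with AC220, 364, 355, 339 and 268 CPM with Lys05 and 338, 201, 300 and 345 CPM with Vehicle. Gar1, its remaining core protein, had 83.9, 62.8, 84.2 and 56.9 CPM with Combination, 53.1, 44.4, 50.3 and 48.5 CPM with AC220, 58.5, 66.7, 59.5 and 63.3 CPM with Lys05 and 82.3, 52.8, 43.4 and 58.9 CPM with Vehicle. Treated and Vehicle libraries overlapped for both. With AC220 the fold change of Dkc1 was -0.10 ± 0.16 (adjusted p = 0.61) and that of Gar1 -0.28 ± 0.18 (adjusted p = 0.203), while all 4 Gar1 values with Combination were above all 4 with AC220. Within a library, then, Nhp2 and Nop10 counts shifted against those of Dkc1 and Gar1.

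The box C/D particle, which carries the methyltransferase, was likewise split. Fbl, the methyltransferase itself, had 338, 346, 396 and 342 CPM with Combination, 295, 262, 296 and 275 CPM with AC220, 207, 230, 210 and 217 CPM with Lys05 and 184, 211, 200 and 195 CPM with Vehicle. The groups were ordered without overlap, Combination above AC220, and both above Lys05 and Vehicle, which overlapped each other. Its log2 fold change was 0.85 ± 0.09 (SE; adjusted p = 7.4e-07) with Combination and 0.51 ± 0.09 (SE; adjusted p = 1.3e-04) with AC220. Nop58, a scaffold protein of the particle, fell, at -0.92 ± 0.16 with Combination and -1.15 ± 0.16 with AC220 (adjusted p = 1.3e-04 and 1.3e-05). Its libraries had 161, 170, 171 and 128 CPM with Combination, 158, 123, 141 and 117 CPM with AC220, 331, 260, 264 and 252 CPM with Lys05 and 387, 258, 236 and 314 CPM with Vehicle, with treated and Vehicle groups apart. Nop56, the paired scaffold protein, had 316, 401, 454 and 388 CPM with Combination, 329, 370, 410 and 303 CPM with AC220, 438, 622, 518 and 265 CPM with Lys05 and 322, 223, 357 and 376 CPM with Vehicle, with all groups overlapping and an AC220 fold change of 0.14 ± 0.22 (adjusted p = 0.601).

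Nat10, which acetylates cytidines of small-subunit rRNA, had 57.9, 77.2, 88.6 and 86.7 CPM with Combination, 70, 74.2, 70.6 and 80.9 CPM with AC220, 34.4, 22.2, 23.2 and 48.1 CPM with Lys05 and 58.6, 47.6, 47.9 and 31.8 CPM with Vehicle. All AC220 libraries were above all Vehicle libraries, whereas Combination replicate 1, at 57.9 CPM, lay just below the highest Vehicle library, at 58.6 CPM. Its AC220 fold change of 0.67 ± 0.23 (SE; adjusted p = 0.0227) turned to -0.30 when length and GC were modelled, and the call was lost without Vehicle replicate 4 or AC220 replicate 4 (adjusted p up to 0.055). Nolc1, a snoRNP chaperone, rose by 0.86 with AC220 but was at -0.08 with length and GC modelled. Rrp9, the U3-specific protein, was at 0.17 ± 0.24 and did not pass (adjusted p = 0.557).

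For the small subunit, Tsr1, a late factor of small-subunit precursors (chromosome 11, 74898071 to 74909342), had 33.3, 49.5, 52.3 and 47.3 CPM in the Combination libraries, 35.7, 44.9, 46.6 and 45.7 in the AC220 libraries, 3.86, 6.97, 5.12 and 4.36 in the Lys05 libraries and 13.4, 6.65, 3.04 and 8.88 in the Vehicle libraries. The treated libraries were all above the Lys05 and Vehicle libraries, whose values were low and spread over several fold. The log2 fold change was 2.51 ± 0.34 (SE; adjusted p = 9.7e-06) with Combination and 2.43 ± 0.33 (SE; adjusted p = 1.1e-05) with AC220. Of Tsr1 exon bases, 32.3% lie opposite exons of Srr, and the libraries were made by a method that keeps no strand. Srr itself had 2.5 to 4.64 CPM with AC220 and 1.63 to 7.02 CPM with Vehicle (log2 fold change -0.11, adjusted p = 0.844).

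Bysl, a structural factor of the small-subunit precursor, rose by 1.38 ± 0.21 with Combination and 1.12 ± 0.21 with AC220 (adjusted p = 4.6e-05 and 2.9e-04), and its AC220 value was 0.03 with length and GC modelled. Utp4, Ltv1 and Rrp12 rose as well, by 0.96, 0.81 and 0.70 with AC220, and Rrp12 alone of these turned, to -0.43, with length and GC modelled. Of the 9 small-subunit members, 5 rose with AC220, and 2 were called higher with length and GC modelled. Tsr1 was among these 2, so Utp4 and Ltv1 did not both keep the call. The remaining 4 did not pass with AC220 or Combination. Utp20, a very large protein of the early processome, had 25.1, 18.5, 18.5 and 19 CPM with Combination, 22.7, 15.8, 15.4 and 19.1 CPM with AC220, 21.6, 17.4, 18.9 and 36.3 CPM with Lys05 and 28.4, 35.7, 19.3 and 22.9 CPM with Vehicle. Those groups overlapped, at -0.55 ± 0.25 with AC220 (adjusted p = 0.0727). Nop14, Wdr43 and Ddx10 had AC220 fold changes of -0.34, -0.10 and 0.15.

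For the large subunit, Noc2l rose furthest of all 46 members. This homolog of yeast Noc2, also known as an inhibitor of histone acetyltransferases (chromosome 4, 156236010 to 156247616), had 244, 340, 423 and 371 CPM in the Combination libraries, 327, 366, 367 and 327 in the AC220 libraries, 26.2, 39.2, 26.9 and 28.4 in the Lys05 libraries and 26, 32.4, 24.4 and 32.3 in the Vehicle libraries. The treated libraries lay far above all Lys05 and Vehicle libraries, and Combination replicate 1 was the lowest of them. Its log2 fold change was 3.58 ± 0.18 (SE; adjusted p = 1.9e-10) with Combination and 3.59 ± 0.18 (SE; adjusted p = 9.0e-11) with AC220. The exons share 20.9% of their bases with Samd11 on the other strand, a gene at 0.145 CPM or less in these groups.

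The proteins Pes1, Bop1 and Wdr12 work as 1 complex, PeBoW, in large-subunit rRNA processing. Pes1 had 137, 179, 213 and 198 CPM with Combination, 158, 168, 169 and 154 CPM with AC220, 58.6, 63.6, 51.5 and 68 CPM with Lys05 and 88.8, 61.4, 48.7 and 64.5 CPM with Vehicle. Bop1 had 136, 225, 258 and 230 CPM with Combination, 201, 211, 211 and 200 CPM with AC220, 85.9, 125, 86.1 and 49.6 CPM with Lys05 and 44.8, 76.1, 80.5 and 73.2 CPM with Vehicle. For both, treated libraries were above all Lys05 and Vehicle libraries, with Combination replicate 1 the lowest treated value. Pes1 rose by 1.46 ± 0.17 with Combination and 1.30 ± 0.17 with AC220 (adjusted p = 2.3e-06 and 6.7e-06). Bop1 rose by 1.63 ± 0.25 and 1.58 ± 0.25 (adjusted p = 4.4e-05 and 5.0e-05), and with length and GC modelled the AC220 value of 0.44 no longer passed (adjusted p = 0.0861).

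Wdr12, the third protein of the complex, had 157, 198, 191 and 186 CPM with Combination, 114, 151, 168 and 139 CPM with AC220, 421, 386, 420 and 309 CPM with Lys05 and 299, 242, 344 and 351 CPM with Vehicle. It fell, at -0.76 ± 0.15 with Combination and -1.12 ± 0.15 with AC220 (adjusted p = 4.1e-04 and 8.1e-06). All treated libraries were below all others, so the 3 partners did not move the same way. Nop2, an rRNA cytosine methyltransferase (chromosome 6, 125131909 to 125144753), had 145, 193, 241 and 195 CPM in the Combination libraries, 167, 178, 194 and 178 in the AC220 libraries, 42.5, 62.4, 33.8 and 52.6 in the Lys05 libraries and 26.8, 44.5, 28.7 and 36.9 in the Vehicle libraries. It rose by 2.50 ± 0.21 with Combination and 2.39 ± 0.21 with AC220 (adjusted p = 4.7e-08 and 6.0e-08), without overlap.

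Nop16, a small nucleolar protein of large-subunit precursors, had 171, 216, 230 and 185 CPM in the Combination libraries, 120, 142, 177 and 142 in the AC220 libraries, 1077, 918, 905 and 943 in the Lys05 libraries and 598, 632, 1058 and 938 in the Vehicle libraries. It fell, at -2.01 ± 0.18 with Combination and -2.47 ± 0.18 with AC220 (adjusted p = 1.0e-07 and 7.8e-09), and its Combination and AC220 libraries overlapped each other but no other group. Ebna1bp2, another large-subunit factor, fell, at -1.02 ± 0.16 and -1.42 ± 0.16. Gnl3, or nucleostemin, a GTPase first studied in stem cells, had 177, 149, 155 and 130 CPM with Combination, 99.4, 89.2, 127 and 102 CPM with AC220, 262, 280, 265 and 223 CPM with Lys05 and 298, 201, 191 and 230 CPM with Vehicle. Each Combination value lay above each AC220 value and below each Lys05 and Vehicle value. It fell, at -0.59 ± 0.15 with Combination and -1.14 ± 0.15 with AC220 (adjusted p = 0.00378 and 8.7e-06).

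Of the remaining large-subunit genes, the GTPase Gnl2 and the pre-rRNA processing factor Las1l rose with AC220, by 0.84 and 0.83. Of the 14 large-subunit members, 7 rose with AC220, and 3 were called higher with length and GC modelled. Noc2l and Nop2 were among these 3, so Pes1, Gnl2 and Las1l did not all keep the call. Ppan rose by 0.37 with AC220, a call lost without any of 4 single libraries (adjusted p up to 0.134) and moved to -0.003 with length and GC modelled. Wdr74 fell, at -0.68 ± 0.25 with AC220, although its groups overlapped, and 5 single libraries decided that call (adjusted p up to 0.145). Ddx18 and Rrp1b, at -0.36 and 0.11, did not pass. Rrp1b passed with Combination, at 0.35 ± 0.14 (SE; adjusted p = 0.0391), but turned to -0.34 with length and GC modelled and lost the call without any of 6 single libraries (adjusted p up to 0.109).

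Of the nucleolar proteins, Npm1 (chromosome 11, 33152287 to 33163206), a chaperone often mutated in acute myeloid leukemia, had 1069, 1155, 860 and 1030 CPM in the Combination libraries, 722, 687, 851 and 689 in the AC220 libraries, 1819, 1594, 1719 and 1891 in the Lys05 libraries and 1816, 1764, 1568 and 1769 in the Vehicle libraries. All treated libraries were below all others, and every Combination value was above every AC220 value. Npm1 fell, at -0.75 ± 0.11 with Combination and -1.23 ± 0.11 with AC220 (adjusted p = 1.8e-05 and 5.7e-08), but with length and GC modelled it was at 0.56 and 0.34, above 0 in both (adjusted p = 3.9e-04 and 0.0148). Its direction thus depended on that choice. Of the 75-base words in Npm1 transcripts, 18.1% also occur in 8 other genes, so reads may be shared with pseudogenes; among those, Gm14681 had 0.764 to 1.24 CPM with AC220 and 3.71 to 4.37 CPM with Vehicle, and Gm6477 5.28 to 8.6 CPM with AC220 and 2.54 to 3.82 CPM with Vehicle.

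Ncl, which binds pre-rRNA, had 1455, 1371, 1620 and 1368 CPM with Combination, 1339, 957, 1155 and 1055 CPM with AC220, 1139, 1087, 1086 and 1241 CPM with Lys05 and 1727, 1064, 1032 and 1188 CPM with Vehicle. Vehicle replicate 1 was the highest library of all, the treated groups overlapped Vehicle, and the AC220 fold change was -0.15 ± 0.15 (adjusted p = 0.4). Mybbp1a, a repressor and pre-rRNA processing protein, had 300, 397, 466 and 494 CPM with Combination, 468, 463, 412 and 422 CPM with AC220, 151, 131, 108 and 138 CPM with Lys05 and 170, 155, 125 and 138 CPM with Vehicle. It rose by 1.49 ± 0.15 with Combination and 1.58 ± 0.15 with AC220 (adjusted p = 5.0e-07 and 2.1e-07), without overlap. The helicase Ddx21 was at -0.36 with AC220 and did not pass (adjusted p = 0.115).

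Among the growth genes, Nme1 fell furthest of all members. This nucleoside diphosphate kinase (chromosome 11, 93956979 to 93968521, minus strand) had 148, 149, 152 and 124 CPM in the Combination libraries, 83.7, 89.5, 95.7 and 90.5 in the AC220 libraries, 901, 828, 822 and 802 in the Lys05 libraries and 818, 811, 877 and 862 in the Vehicle libraries. The 4 groups fell into 3 levels without overlap, lowest with AC220, then Combination, then Lys05 and Vehicle together. Its log2 fold change was -2.56 ± 0.09 (SE; adjusted p = 2.0e-11) with Combination and -3.23 ± 0.10 (SE; adjusted p = 1.6e-12) with AC220, and modelling length and GC left it at -2.66 and -3.31. Of its exon bases, 12.5% are shared on the same strand with Gm20390, which is listed at 0 in the AC220 and Vehicle libraries.

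Odc1 and Srm make polyamines, Odc1 at the rate-limiting step. Odc1 had 281, 352, 359 and 334 CPM with Combination, 234, 271, 315 and 265 CPM with AC220, 170, 162, 149 and 164 CPM with Lys05 and 191, 190, 206 and 124 CPM with Vehicle, with treated libraries above the rest. It rose by 0.90 ± 0.14 with Combination and 0.61 ± 0.14 with AC220 (adjusted p = 6.7e-05 and 0.00183), while with length and GC modelled the AC220 value was -0.05. Srm, spermidine synthase, had 430, 579, 587 and 481 CPM with Combination, 371, 407, 470 and 385 CPM with AC220, 1169, 1405, 1251 and 737 CPM with Lys05 and 482, 533, 1014 and 892 CPM with Vehicle. AC220 values were all below the Vehicle values, at -0.84 ± 0.23 (SE; adjusted p = 0.00517), and Combination values overlapped them, at -0.49 ± 0.23 (SE; adjusted p = 0.0816). Lys05 held the highest Srm library.

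Cad, which encodes the enzyme that starts pyrimidine synthesis, had 157, 135, 141 and 159 CPM with Combination, 214, 156, 139 and 154 CPM with AC220, 65.5, 59.8, 66.8 and 65.5 CPM with Lys05 and 66.3, 72.5, 46.3 and 70.5 CPM with Vehicle. It rose by 1.21 ± 0.15 with Combination and 1.38 ± 0.15 with AC220 (adjusted p = 5.5e-06 and 1.1e-06), without overlap. Apex1, the main endonuclease of base excision repair, had 41.5, 41.2, 60.4 and 41.2 CPM with Combination, 38.8, 36.3, 36.8 and 36.7 CPM with AC220, 96.5, 138, 119 and 62.7 CPM with Lys05 and 58.7, 62.9, 98.7 and 83.6 CPM with Vehicle. It fell, at -0.72 ± 0.22 with Combination and -1.03 ± 0.22 with AC220 (adjusted p = 0.0118 and 8.6e-04), although Combination replicate 3 overlapped the Vehicle libraries. Exons of Pip4p1 lie opposite 61.7% of the Apex1 exon bases, and Pip4p1 had 41.1 to 43.9 CPM with AC220 and 32.2 to 44.5 CPM with Vehicle, so reads of the pair cannot be told apart over that stretch.

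**Figure D2:**
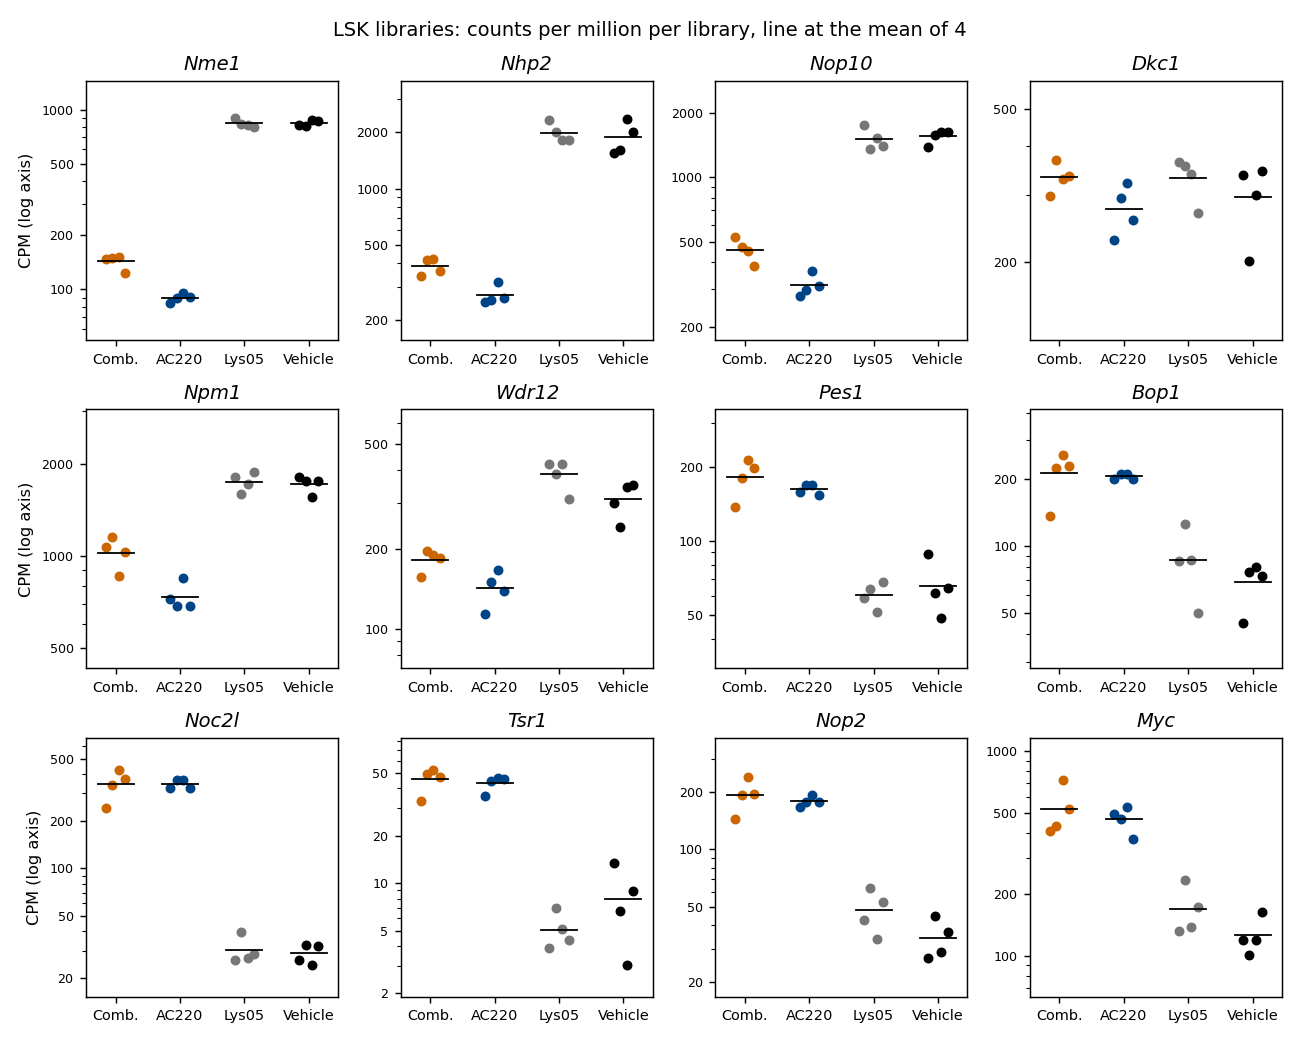
CPM per LSK library on log axes for 11 ribosome biogenesis and growth genes and Myc, with a line at the mean of 4 libraries; groups run Combination, AC220, Lys05, Vehicle. Nme1, Nhp2, Nop10, Npm1 and Wdr12 are lower in all Combination and AC220 libraries than in any Lys05 or Vehicle library, Pes1, Bop1, Noc2l, Tsr1, Nop2 and Myc are higher, and Dkc1 overlaps.

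Set against Lys05 instead of Vehicle, Combination gave a like split, in a contrast of other libraries than AC220 against Vehicle, although all 16 LSK libraries shared 1 fit. Of the 46 members, 20 rose and 12 fell (43.5% and 26.1%), against a background of 27.2% and 22.3% of all genes tested. The members' median was 0.35, beside 0.14 for all genes. The 6 that rose with the smallest p-values were Noc2l at 3.51 ± 0.18, Mybbp1a at 1.65 ± 0.15, Nop2 at 2.02 ± 0.21, Polr1b at 1.66 ± 0.17, Pes1 at 1.59 ± 0.17 and Tsr1 at 3.17 ± 0.35. Those that fell were led by Nme1 at -2.55 ± 0.09, Nhp2 at -2.37 ± 0.15, Nop10 at -1.72 ± 0.12, Nop16 at -2.26 ± 0.18, Polr1c at -1.71 ± 0.15 and Ebna1bp2 at -1.34 ± 0.16. None of these 12 had overlapping Combination and Lys05 libraries. They were picked by p-value from the same libraries, so this is no separate evidence, and the share of all genes with such libraries was not counted. Npm1 fell, at -0.77 ± 0.11 and, as before, was above 0 at 0.64 with length and GC modelled (adjusted p = 1.3e-04).

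The direction of a member in LSK went with its coding length. The 46 coding sequences are 192 to 8367 bp long. Of the 10 members under 1000 bp, 1 rose with AC220 (Fbl) and 8 fell, with a median log2 fold change of -1.33. The 15 members of 1000 bp or more and under 2000 bp gave 6 that rose and 5 that fell, with a median of 0.14. Of the 21 members of 2000 bp or more, 13 rose and none fell, with a median of 0.83. All protein-coding genes tested showed a gradient of the same sign, with medians of -0.81, 0.66 and 0.82 in these 3 classes. Of those under 1000 bp 15.2% rose and 48.1% fell, of those between 42.9% and 12.9%, and of those of 2000 bp or more 45.9% and 8.92%. Across the 46 members the Pearson correlation of log2 fold change with log2 coding length was 0.64, and across 12777 protein-coding genes it was 0.37; the genes share the same 8 libraries, so this is a description.

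A fit that gave each library its own smooth function of transcript length and GC content as an offset took part of this gradient away. Transcript length was the median over a gene's transcripts, and coding length itself was not modelled. The offset removes whatever follows transcript length or GC, from any source. With it, 12 members rose and 15 fell with AC220, against a background of 21.8% and 21.7%, and their median was -0.08 beside 0.02 for all genes. Of the 10 short members 6 still fell, with a median of -0.93, and of the 21 members of 2000 bp or more 4 fell and 6 rose, with a median of 0.13. Utp20, Ddx18, Ddx21, Nop14 and Rrp1b were called lower and Nop56 higher here but not without the offset, at -0.72, -0.74, -0.74, -0.97, -0.78 and 0.65. For Combination against Vehicle this fit gave 15 that rose and 11 that fell, against a background of 22.3% and 20.4%. For Combination against Lys05 it gave 18 and 13, against a background of 20.3% and 18.5%. The correlation with coding length dropped to 0.46 over the members and 0.15 over all protein-coding genes. Nme1, Nhp2, Nop16, Nop10, Noc2l, Tsr1 and Nop2 kept their direction and their call in the AC220 comparison, at -3.31, -2.10, -1.90, -1.14, 2.40, 1.86 and 1.31.

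**Figure D3:**
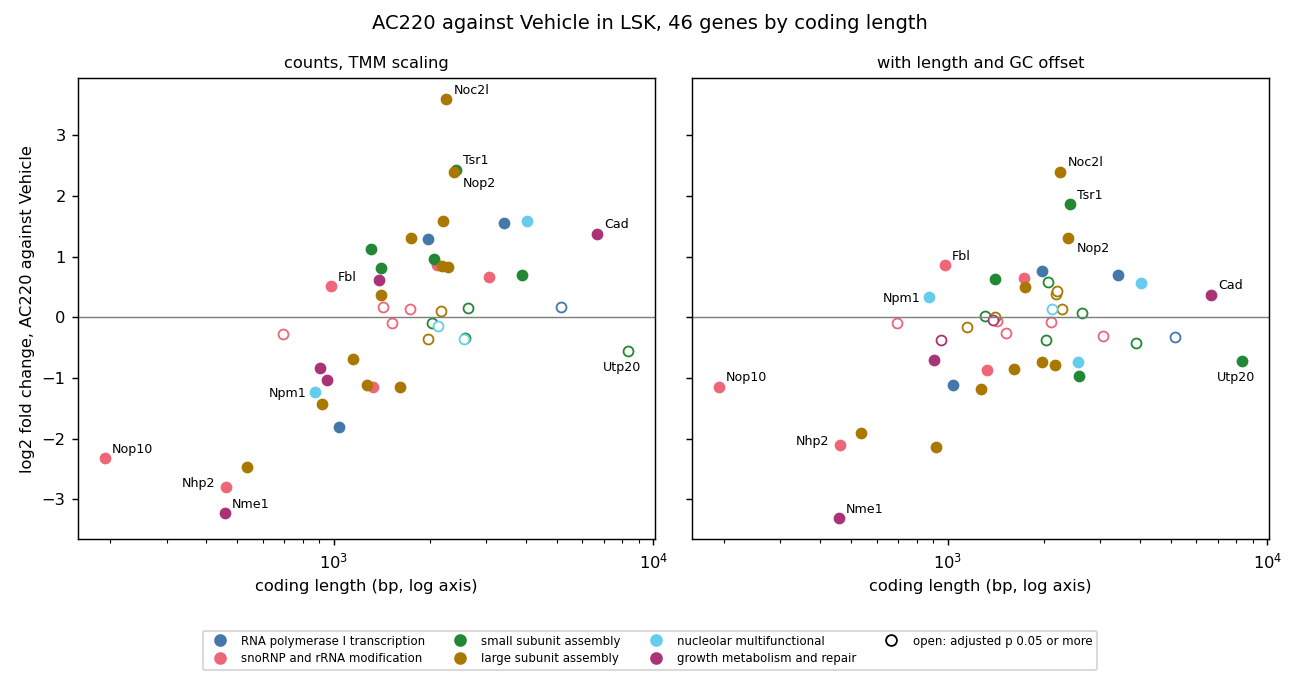
Log2 fold change of AC220 against Vehicle in LSK for each of the 46 genes against its coding length in bp on a log axis, from the counts as scaled (left) and with the length and GC offset (right); colours give the role and open circles an adjusted p of 0.05 or more. The correlation over the 46 genes is 0.64 on the left and 0.46 on the right, and Npm1 moves from -1.23 to 0.34.

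Adding Lys05 to AC220 was tested by Combination against AC220 in LSK. Only Nme1 passed the test, at 0.67 ± 0.09 (SE; adjusted p = 0.0172), or 1 member, against a background of 0.343% that rose and 0.0127% that fell. This call was lost without any of 8 single libraries (Vehicle 3 or 4, Lys05 1 or 3, AC220 2, 3 or 4, or Combination 2), with an adjusted p of up to 0.128. At an unadjusted p under 0.05 there were 13 members, beside 1456 of 15730 genes tested. DESeq2 called 7 members, beside 304 genes higher and 45 lower. Limma-voom with quality weights called 21 members, and its share over all genes is not given here. Next by p-value were Nop10 at 0.56 ± 0.12 (SE; adjusted p = 0.0562), Npm1 at 0.48 ± 0.11 (SE; adjusted p = 0.0646), Fbl at 0.33 ± 0.09 (SE; adjusted p = 0.119), Nhp2 at 0.51 ± 0.14 (SE; adjusted p = 0.122) and Gnl3 at 0.55 ± 0.15 (SE; adjusted p = 0.126). In each of these 5, as in Nme1, the 4 Combination libraries were all above the 4 AC220 libraries. These genes were picked by p-value from the same libraries, so this is no separate evidence. The share of all genes with such libraries was not counted.

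Over the whole set, 41 of the 46 fold changes of Combination over AC220 were above 0, beside 8640 of 15730 genes tested. The median was 0.26 beside 0.04 for all genes. This lean was not particular to the members. Of 115 further ribosome biogenesis genes 96 were above 0, and of 49 further growth genes 46 were. The gradient with length ran opposite to that of AC220 over Vehicle: medians were 0.47, 0.27 and 0.15 from short to long members, and 0.18, 0.01 and -0.14 for protein-coding genes. The correlation with log2 coding length was -0.79 over the members and -0.23 over all protein-coding genes. It was -0.54 and -0.07 with the offset, with the members' median at 0.28. Both comparisons contain the AC220 libraries, with opposite sign, so opposite gradients are partly built in.

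**Figure D4:**
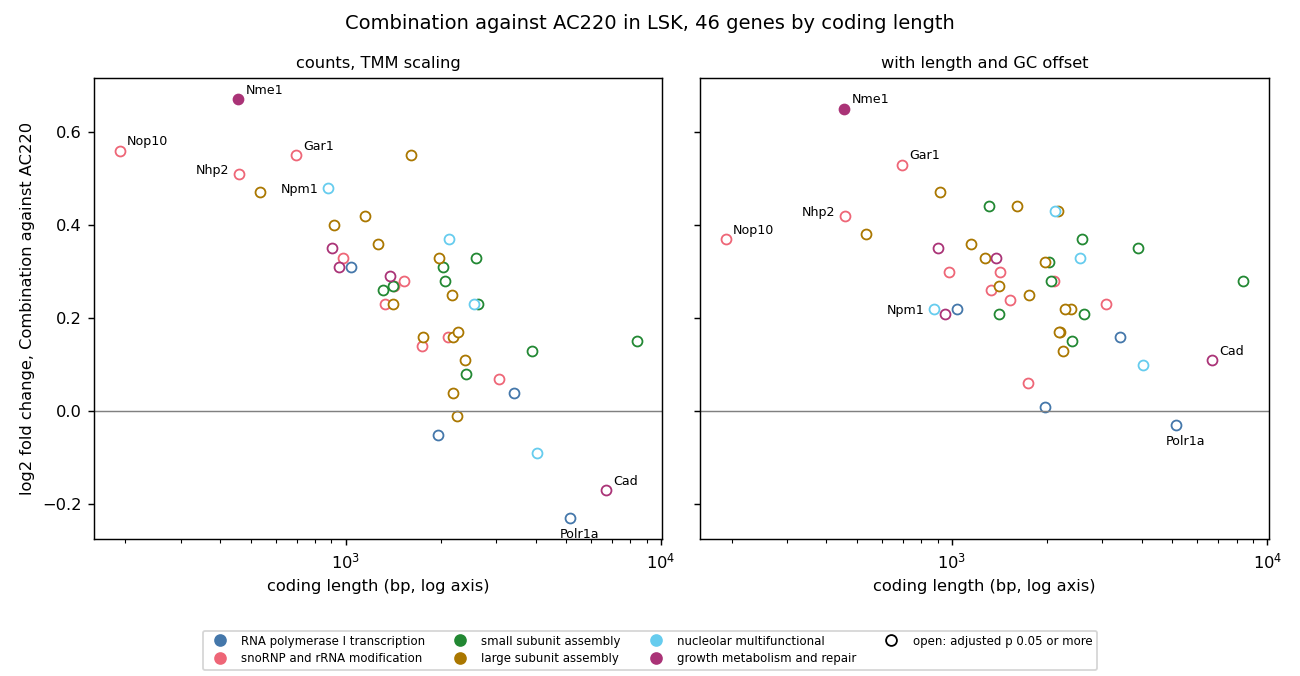
Log2 fold change of Combination against AC220 in LSK for each of the 46 genes against coding length in bp on a log axis, as scaled (left) and with the length and GC offset (right), colours by role, open circles for an adjusted p of 0.05 or more. On the left 41 genes lie above 0 and Nme1, at 0.67, is the filled one; values range from -0.23 to 0.67.

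Lys05 alone changed no member in LSK, against a background of 0% of genes tested, and the fold changes were divided evenly, 23 above and 23 below 0, from -0.68 to 0.68. At an unadjusted p under 0.05 there were 9 members, beside 2718 of 15730 genes tested, so the members did not stand out. DESeq2 called 1 member, beside 332 genes higher and 275 lower, and limma-voom none. That member was Rrp12, at -0.68 ± 0.20 (SE; adjusted p = 0.141) in edgeR. Las1l at -0.61 ± 0.19, Ddx21 at -0.59 ± 0.19 and Srm at 0.64 ± 0.23 came next. The interaction of Lys05 with AC220, which asks whether the AC220 effect differs with Lys05 present, passed for no member, against a background of 0%. There, 9 members had an unadjusted p under 0.05, beside 1645 of 15730 genes tested. Limma-voom called no member and DESeq2 1, beside 113 genes higher and 5 lower. The smallest p in edgeR belonged to Nme1 at 0.68 ± 0.13 (SE; adjusted p = 0.222).

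In GMP no treatment changed a member at an adjusted p under 0.05. The background was equally empty, 0% for AC220, for Combination and for Lys05 against Vehicle, so the members did not stand out in this. For AC220, 7 members had an unadjusted p under 0.05, beside 1386 of 14572 genes tested. DESeq2 called 1, beside 28 genes higher and 254 lower, and limma-voom 1. For Combination, 10 members and 1601 genes had such a p. DESeq2 called 5 members, beside 151 genes higher and 202 lower, and limma-voom none. For Lys05, 1 member and 159 genes had such a p. DESeq2 called no member, beside 1 gene higher and 1 lower, and limma-voom 4. The numbers of all genes called by limma-voom are not given here, so its counts are no result about the members. Fold changes were mostly above 0, for 37 of 46 members with AC220 (median 0.42, beside 0.09 for all genes) and 35 with Combination (median 0.58, beside 0.18), and spread from -1.23 to 1.51 and from -0.87 to 2.23. With Lys05 18 were above 0 and the median was -0.13.

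Las1l, of the large-subunit processing complex, came nearest in GMP. It had 94.3, 82.8, 83.8 and 113 CPM in the Combination libraries, 97.1, 73.3, 80.2 and 52.6 in the AC220 libraries, 30.9, 33.2, 23.3 and 24.8 in the Lys05 libraries and 36.5, 27.1, 31.2 and 23.3 in the Vehicle libraries. Every Combination and AC220 library was above every Lys05 and Vehicle library, yet the fold changes of 1.66 ± 0.33 and 1.36 ± 0.33 had adjusted p = 0.181 and 0.299 in edgeR; DESeq2 gave 1.3e-09 and 4.2e-05. Odc1 had 262, 157, 244 and 219 CPM in the Combination libraries, 104, 81.9, 174 and 165 in the AC220 libraries, 107, 141, 92.3 and 80.9 in the Lys05 libraries and 36.8, 66, 79.5 and 89.3 in the Vehicle libraries. Its Combination libraries were all above its Vehicle libraries, at 1.70 ± 0.35 (SE; adjusted p = 0.181).

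Dkc1 in GMP had 296, 379, 629 and 347 CPM with Combination, 582, 152, 210 and 189 CPM with AC220, 186, 160, 156 and 173 CPM with Lys05 and 168, 159, 129 and 155 CPM with Vehicle. Ncl had 2337, 2658, 2129 and 2581 CPM with Combination, 2236, 1146, 1898 and 989 CPM with AC220, 1091, 893, 568 and 632 CPM with Lys05 and 1636, 972, 922 and 678 CPM with Vehicle. For both, all Combination libraries were above all Vehicle libraries, at 1.44 ± 0.37 (SE; adjusted p = 0.316) and 1.21 ± 0.31 (SE; adjusted p = 0.316), and AC220 replicate 1 was the highest AC220 library. Npm1 had 1319, 1424, 1680 and 1650 CPM with Combination, 2051, 887, 1103 and 802 CPM with AC220, 1272, 1044, 543 and 625 CPM with Lys05 and 1076, 591, 656 and 839 CPM with Vehicle, with Combination again above Vehicle throughout. Its fold change was 0.94 ± 0.33 (SE; adjusted p = 0.33).

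Of the 13 members that fell with AC220 in LSK, 10 had an AC220 fold change above 0 in GMP, beside 37 of all 46 members. For 3, Apex1, Ebna1bp2 and Srm, it was below 0. None of the 13 passed, and none had AC220 libraries wholly below Vehicle. Apex1 had 11.9, 21.7, 20.8 and 10 CPM with Combination, 6.35, 15.4, 1.68 and 26.7 CPM with AC220, 5.92, 27.4, 69 and 54.6 CPM with Lys05 and 28.8, 43, 21.6 and 24.4 CPM with Vehicle in GMP, with overlap, at -0.87 ± 0.74 with Combination and -1.23 ± 0.75 with AC220 (adjusted p = 0.718 and 0.677). Ebna1bp2 and Srm were at -0.35 and -0.22 with AC220. Nme1 had 812, 1077, 615 and 925 CPM with Combination, 743, 672, 843 and 700 CPM with AC220, 555, 614, 512 and 417 CPM with Lys05 and 905, 654, 515 and 378 CPM with Vehicle. Nhp2 had 1525, 1396, 616 and 844 CPM with Combination, 1382, 1931, 1374 and 1500 CPM with AC220, 613, 1026, 1316 and 976 CPM with Lys05 and 1412, 1377, 942 and 664 CPM with Vehicle. Nop10 had 1065, 834, 445 and 719 CPM with Combination, 721, 1444, 1254 and 1249 CPM with AC220, 682, 842, 865 and 695 CPM with Lys05 and 1207, 868, 682 and 665 CPM with Vehicle. Treated and Vehicle libraries overlapped for all 3, and their AC220 fold changes were 0.27 ± 0.26, 0.49 ± 0.32 and 0.45 ± 0.29. Gnl3 had 238, 315, 188 and 175 CPM with Combination, 250, 112, 216 and 91.6 CPM with AC220, 225, 157, 94.6 and 107 CPM with Lys05 and 141, 123, 157 and 151 CPM with Vehicle, with Combination above Vehicle and AC220 on both sides of it.

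Of the 20 members that rose with AC220 in LSK, 17 had an AC220 fold change above 0 in GMP. This stands beside 37 of all 46 members and 7895 of 14572 genes tested. For 3, Gnl2, Las1l and Nolc1, the AC220 libraries were wholly above Vehicle. The share of all genes with such libraries was not counted, so the 3 are no result about the members as a set. Nolc1 had 190 to 411 CPM with AC220 and 98.9 to 154 CPM with Vehicle there. Others were spread widely. Noc2l had 58.1, 103, 42.3 and 40.8 CPM with Combination, 144, 17.1, 41.8 and 45.8 CPM with AC220, 28, 30.2, 22 and 25.9 CPM with Lys05 and 105, 71.8, 42.4 and 23.4 CPM with Vehicle. Bop1 had 131, 101, 17.6 and 23.2 CPM with Combination, 46.5, 62.6, 41 and 65.1 CPM with AC220, 30.7, 63.7, 76 and 61.4 CPM with Lys05 and 154, 52.5, 57.8 and 40.7 CPM with Vehicle. Pes1 had 95.6, 39.7, 18 and 163 CPM with Combination, 227, 168, 100 and 90.8 CPM with AC220, 85.5, 76.1, 54.5 and 58.9 CPM with Lys05 and 136, 72.4, 92.4 and 62.7 CPM with Vehicle. In each, replicates of 1 group differed several fold and every treatment overlapped Vehicle. Every Combination library was above every Lys05 library for Noc2l, and every AC220 library above every Lys05 library for Pes1. Polr1b had 51.8, 9.01, 1.69 and 29.2 CPM with Combination, 0.184, 45.3, 2.98 and 9.95 CPM with AC220, 20.5, 17.2, 18.3 and 17.3 CPM with Lys05 and 0.0949, 14.5, 13.2 and 20.1 CPM with Vehicle, with AC220 replicate 1 and Vehicle replicate 1 near 0. Rrn3 had 7.04, 21.4, 34.5 and 21.5 CPM with Combination, 10.7, 14.6, 21.5 and 7.03 CPM with AC220, 15.3, 8.47, 6.53 and 7.49 CPM with Lys05 and 9.43, 12.1, 10.5 and 10.6 CPM with Vehicle, again with overlap.

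For the rest of the genes given library by library, every treatment overlapped Vehicle in GMP as well. Every AC220 library was above every Lys05 library for Nat10. Polr1a had 114, 77.2, 5.06 and 84.4 CPM with Combination, 70.2, 51.6, 205 and 53.4 CPM with AC220, 39.1, 59.9, 38.1 and 36.4 CPM with Lys05 and 55.7, 55, 78.5 and 49.5 CPM with Vehicle. Fbl had 213, 207, 124 and 159 CPM with Combination, 127, 274, 131 and 226 CPM with AC220, 115, 163, 139 and 129 CPM with Lys05 and 170, 172, 146 and 99.3 CPM with Vehicle. Nop56 had 326, 404, 147 and 208 CPM with Combination, 267, 254, 149 and 209 CPM with AC220, 219, 198, 210 and 219 CPM with Lys05 and 220, 262, 173 and 197 CPM with Vehicle. In Polr1a, AC220 replicate 3 held several times the other AC220 libraries, and Combination replicate 3 a small fraction of the other Combination libraries. Gar1 had 126, 42.4, 34.8 and 106 CPM with Combination, 79, 45.1, 60.5 and 58.6 CPM with AC220, 52.5, 61.3, 43.8 and 43.4 CPM with Lys05 and 16, 42.5, 60 and 45 CPM with Vehicle. Nat10 had 29, 33.5, 149 and 12.9 CPM with Combination, 131, 33.1, 86.8 and 50.9 CPM with AC220, 30, 28.9, 24.8 and 17.9 CPM with Lys05 and 34.5, 94.1, 123 and 28.9 CPM with Vehicle. Utp20 had 49.2, 7.49, 109 and 20.6 CPM with Combination, 50.9, 41.1, 1.12 and 21.2 CPM with AC220, 41.9, 20.3, 15.5 and 15.9 CPM with Lys05 and 49.6, 17.2, 28.6 and 21.8 CPM with Vehicle. Nat10 and Utp20 differed many fold within a group. Srm had 332, 327, 603 and 50.6 CPM with Combination, 150, 264, 469 and 429 CPM with AC220, 208, 346, 783 and 603 CPM with Lys05 and 291, 575, 368 and 295 CPM with Vehicle, and Cad had 39.9, 126, 3.89 and 3.16 CPM with Combination, 18.3, 48.4, 41.2 and 27.6 CPM with AC220, 22, 49.7, 43.5 and 36.5 CPM with Lys05 and 29, 43.6, 35 and 25.2 CPM with Vehicle. Combination replicate 3 and replicate 4 were low in Cad, while only replicate 4 was low in Srm.

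Combination against AC220 in GMP gave no called member, against a background of 0.00686%. In it, 3 members had an unadjusted p under 0.05. DESeq2 called 1 (Rrp1b, 0.99 ± 0.32 in edgeR), beside 547 genes higher and 271 lower, and limma-voom none. Combination against Lys05 gave no called member either, against a background of 0%, with 17 members at an unadjusted p under 0.05. DESeq2 called 5, beside 244 genes higher and 210 lower, and limma-voom 11. There 38 of 46 fold changes were above 0 and the median was 0.67, beside 0.26 for all genes. Las1l at 1.74 ± 0.33 (SE; adjusted p = 0.0981) and Ncl at 1.61 ± 0.32 (SE; adjusted p = 0.104) had the smallest p-values. The interaction in GMP passed for no member against a background of 0%, with 4 at an unadjusted p under 0.05 and none called by DESeq2 or limma-voom. For these GMP comparisons the numbers over all genes at an unadjusted p or by limma-voom are not given here. Those counts are therefore no result about the members.

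Between the cell types under Vehicle, the members' levels were close to balanced. In LSK against GMP, 23 were above and 23 below 0, 13 had an unadjusted p under 0.05, none was called higher and 1 was called lower, against a background of 1.77% higher and 3.07% lower. The 1 was Noc2l, which in the fit over all 32 libraries had 21.5, 26.9, 20.3 and 26.9 CPM in LSK Vehicle libraries and 113, 87.6, 54.7 and 30.2 CPM in GMP Vehicle libraries. The groups did not overlap, at -1.58 ± 0.42 (SE; adjusted p = 0.0258). That call was lost without any of 6 single libraries, each of the 4 LSK Vehicle libraries or GMP Vehicle 1 or 2 (adjusted p up to 0.104). DESeq2 called 4 members here, beside 917 genes higher and 1010 lower of 17144 tested, and limma-voom called 15. The numbers over all genes at an unadjusted p or by limma-voom are not given here. The 13 and the 15 are therefore no result about the members.

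The treatments' effects in LSK and in GMP were compared directly, as the difference of log2 fold changes in the fit over all libraries. The AC220 effect was higher in LSK for 4 members and lower for 9, against a background of 8.33% and 8.49%. Lower in LSK were Nme1 at -3.34 ± 0.24, Nhp2 at -3.13 ± 0.35, Nop16 at -2.72 ± 0.37, Nop10 at -2.61 ± 0.29, Polr1c at -2.39 ± 0.41, Wdr12 at -2.00 ± 0.39, Nop58 at -1.72 ± 0.38, Npm1 at -1.67 ± 0.32 and Gnl3 at -1.15 ± 0.37. Higher in LSK were Noc2l by 3.70 ± 0.60, Nop2 by 2.86 ± 0.70, Tsr1 by 2.73 ± 0.66 and Bop1 by 2.20 ± 0.64. With length and GC modelled, 2 were higher (Noc2l and Tsr1) and 7 lower, against a background of 5.39% and 5.68%. Npm1, Gnl3, Nop2 and Bop1 did not pass there, at -0.28, -0.94, 1.76 and 1.11 (adjusted p = 0.742, 0.105, 0.0894 and 0.344). With limma-voom and quality weights, in which the median over all genes was 1.02 instead of 0.35, 9 members were called higher and 9 lower. Gnl3 lost its call without any of 8 single libraries (adjusted p up to 0.0859), and Bop1 without LSK Vehicle 1 or GMP Vehicle 1 (up to 0.0543).

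For Combination the effect was higher in LSK for 4 members and lower for 10, against a background of 5.13% and 7.59%. Higher were Noc2l, Nop2, Tsr1 and Pes1, by 3.63 ± 0.60, 3.30 ± 0.71, 2.02 ± 0.66 and 1.81 ± 0.53. Those lower in LSK were the 9 named for AC220 and Ncl, led by Nme1 at -2.96 ± 0.24 and ending with Ncl at -0.91 ± 0.31. With length and GC modelled, 2 were higher (Noc2l and Nop2) and 10 lower, against a background of 3.48% and 5.63%. Tsr1, Pes1, Npm1, Nop58, Gnl3 and Ncl did not pass there (adjusted p = 0.12, 0.128, 0.231, 0.0995, 0.0631 and 0.544), while Dkc1, Odc1, Rrp1b and Las1l were called lower, at -1.23, -1.28, -1.03 and -1.02. Tsr1 lost its call without any of 11 single libraries (adjusted p up to 0.0867), Ncl without any of 21 (0.232) and Gnl3 without any of 8 (0.142). Nop58 lost it without LSK Vehicle 1 (0.0616) and Pes1 without LSK Vehicle 3 (0.0505). With limma-voom 7 were called higher and 11 lower, with a median over all genes of 1.08 instead of -0.06; with DESeq2's size factors in edgeR that median was -0.25. The Lys05 effect differed for no member, against a background of 0%, with 1 at an unadjusted p under 0.05 and none called by DESeq2 or limma-voom.

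**Figure D5:**
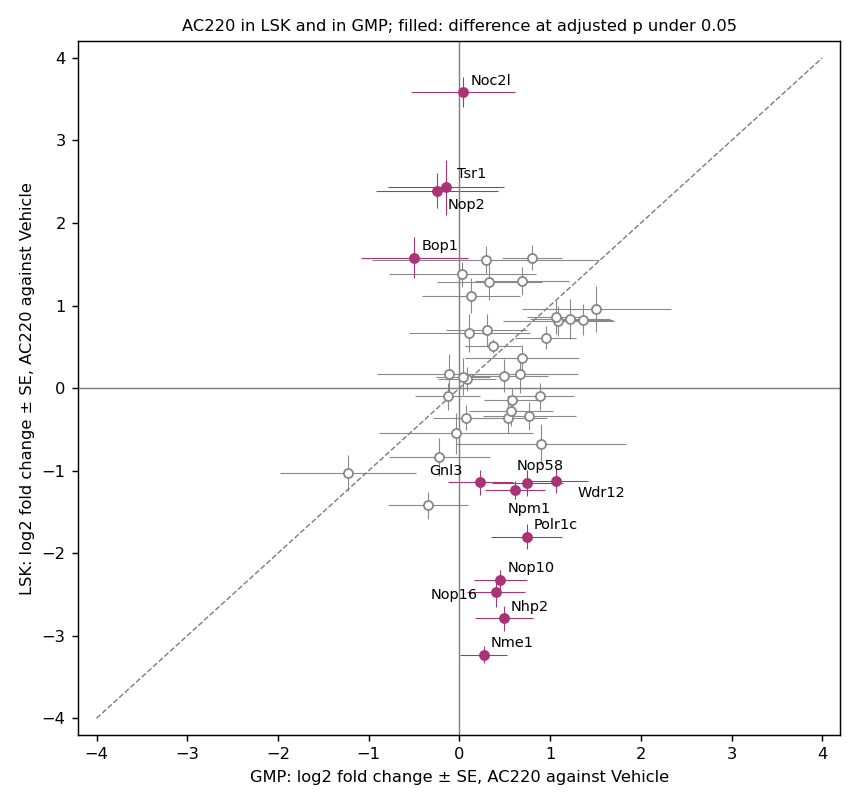
Log2 fold change of AC220 against Vehicle in LSK (vertical) and in GMP (horizontal) with standard errors for the 46 genes, with a dashed line of equal change. The 13 filled genes differ between the cell types at an adjusted p under 0.05; Nme1 is at -3.23 in LSK and 0.27 in GMP, and Noc2l at 3.59 in LSK and 0.04 in GMP, where the error is 0.57.

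Other genes of the same pathways, from lists chosen by name, also held genes of both directions in LSK, in other proportions. Of 115 further ribosome biogenesis genes, 39 rose (33.9%) and 45 fell (39.1%) with AC220, against a background of 29.4% and 25.5%. With Combination 43 rose (37.4%) and 32 fell (27.8%), against 28.3% and 23.6%. The medians were -0.15 with AC220 and 0.12 with Combination. By coding length, 26 of the 32 short ones fell with AC220 and 1 rose, while 20 of the 37 long ones rose and 7 fell. Among 44 large-subunit factors, 13 rose and 17 fell with AC220: Brix1 fell, at -3.85 ± 0.14, Nsa2 at -2.94 ± 0.13 and Rpf2 at -2.43 ± 0.14, whereas Ddx54 rose by 3.57 ± 0.31, Surf6 by 2.37 ± 0.21 and Ftsj3 by 1.44 ± 0.15. Among 48 small-subunit factors, 21 rose and 17 fell. Fcf1 fell, at -3.48 ± 0.15, Utp11 at -2.69 ± 0.13 and Dcaf13 at -1.92 ± 0.12, and Nol6 rose by 2.98 ± 0.21, Tbl3 by 2.06 ± 0.21 and Utp6 by 1.49 ± 0.16.

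Of 12 further RNA polymerase I factors, 3 rose and 4 fell with AC220. Taf1c, of the promoter selectivity complex, rose by 2.65 ± 0.30, while the subunits Znrd1 and Polr1d fell, at -1.90 ± 0.13 and -0.90 ± 0.11. Ubtf, which opens rRNA gene chromatin, rose by 0.79 ± 0.13 but was at -0.40 with length and GC modelled. Of 11 further snoRNP genes, 2 rose and 7 fell, among them the assembly factors Znhit3 at -2.49 ± 0.18 and Pih1d1 at -1.30 ± 0.16 and the box C/D protein Snu13 at -0.96 ± 0.15. Of 49 further growth genes known as MYC targets, 20 rose and 11 fell with AC220, and 25 rose and 8 fell with Combination. Rcc1, Prmt5 and Eif3b rose by 2.37 ± 0.18, 1.60 ± 0.15 and 1.40 ± 0.14, and Hspe1, Ran and Tyms fell, at -2.60 ± 0.14, -1.73 ± 0.14 and -1.84 ± 0.17. Hspe1, a mitochondrial chaperonin, was the single gene of these lists called for Combination against AC220 in LSK, at 0.70 ± 0.13 (SE; adjusted p = 0.0373), a call that ended with length and GC modelled (0.53, adjusted p = 0.17).

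Myc itself rose in LSK under both treatments that contain AC220. It had 408, 430, 727 and 521 CPM in the Combination libraries, 496, 466, 534 and 374 in the AC220 libraries, 132, 236, 139 and 174 in the Lys05 libraries and 119, 101, 120 and 164 in the Vehicle libraries in LSK. All treated libraries were above all Lys05 and Vehicle libraries. The log2 fold change was 2.05 ± 0.22 (SE; adjusted p = 9.4e-07) with Combination and 1.89 ± 0.22 (SE; adjusted p = 1.8e-06) with AC220, and 1.62 ± 0.22 (SE; adjusted p = 1.0e-05) for Combination against Lys05. It did not pass for Lys05 against Vehicle, at 0.43 ± 0.21 (SE; adjusted p = 0.313), or for Combination against AC220, at 0.16 ± 0.21 (SE; adjusted p = 1). With the length and GC offset the Combination and AC220 values were 1.67 and 1.50.

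In GMP Myc had 86.4, 37.4, 1.27 and 34.8 CPM in the Combination libraries, 151, 117, 96.4 and 68.3 in the AC220 libraries, 31.6, 58.6, 77.1 and 95.8 in the Lys05 libraries and 29.7, 92.7, 65.8 and 68.5 in the Vehicle libraries. Combination replicate 3 was at 1.27 CPM, and no comparison within GMP passed: Combination was at -0.68 ± 0.72, AC220 at 0.75 ± 0.72 and Lys05 at 0.04 ± 0.71 against Vehicle. The Combination effect was higher in LSK than in GMP, by 2.93 ± 0.79 (SE; adjusted p = 0.0125), while the AC220 effect, at 1.35 ± 0.77 (SE; adjusted p = 0.245), did not pass as a difference. Of 12 genes for MYC and its partners, 5 rose and 2 fell with AC220 in LSK. Beside Myc, these were Zbtb17 (Miz-1) at 1.71 ± 0.16, the antagonist Mxd1 at 1.77 ± 0.29, Mycn at 1.49 ± 0.26 and Mlx at 1.07 ± 0.33, and Mxd3 and Mxd4, also antagonists, fell, at -1.40 ± 0.27 and -0.62 ± 0.15. The rise of Myc thus stood beside 20 members that rose and 13 that fell, in the same 8 libraries.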

How the data were processed

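RNA was extracted with RNeasy Plus Micro columns, libraries were made with SMARTer Ultra Low Input v4 and Nextera XT reagents, and paired ends were read on a NovaSeq, per the labels' protocols; this chemistry keeps no strand. The values used are raw counts per gene, which the authors deposited in 1 table; per the submitters' processing notes the tools were STAR 2.7.3a, HTSeq 0.11.2, Trim Galore 0.6.5, bcl2fastq 2.20 and DESeq2 1.26.0, with GRCm38, and the strand setting of the counting is not given in the sources used here. The 5 summary lines for reads assigned to no gene, 15.2 to 30.9% of each column, were left out of library sizes, which ran from 35668279 to 55867441 gene counts.

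Counts were tested in R 4.3.3 with edgeR 4.0.16: filterByExpr, TMM scaling and robust quasi-likelihood fits with 1 mean per group. The 16 LSK libraries (15730 genes), the 16 GMP libraries (14572 genes) and all 32 (17144 genes, for LSK against GMP and for differences between treatment effects) were fitted separately. P-values were adjusted by the Benjamini-Hochberg method over all genes of a fit, with a threshold of 0.05; the standard error is the size of the log2 fold change over the square root of F. CPM values use the TMM-scaled library sizes of the same fits. The samples are biological replicates per the labels. The p-values set a difference against the spread between replicates, estimated over all groups of a fit and moderated across genes.

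The members and all lists were chosen with earlier results of these data known. By the rule for named genes, 20 members are given library by library and up to 6 called members per direction are named in each comparison. Other genes named (Srr, Samd11, pseudogenes and the like) share exons or sequence with a member. Coding lengths, transcript lengths and GC content come from GENCODE M21 and promoters from RefSeq (GRCm38.p6). The length in the length and GC offset is transcript length.

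Alternatives were RLE factors, DESeq2 1.42.0, limma 3.58.1 voom with quality weights, no filter, only the groups compared, a length and GC offset (natural splines with 6 degrees of freedom per library), leaving out each library, and leaving out the 3 GMP libraries whose median correlation with their group was under 0.85 and lowest. The form of the offset and this threshold were chosen after seeing the data. The fits were checked on counts simulated from the LSK libraries with known changes. Where a length trend was added it followed transcript length, which the offset models, so that check does not cover coding length. Where a count of members at an unadjusted p or by limma-voom stands without the number over all genes, it is no result about the members.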

Additional observations from a re-analysis of the deposited data

Results flagged for a closer look

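Single libraries stood apart from the other 3 of their group in 11 of 160 pairs of a gene and a group (20 genes in 8 groups), 6 in LSK and 5 in GMP, where chance alone gives about 1 in 20. In LSK, Fbl had 396 CPM in Combination replicate 3, with the others at 338 to 346, Utp20 had 25.1 CPM in Combination replicate 1, with the others at 18.5 to 19, and Nme1 had 124 CPM in Combination replicate 4, with the others at 148 to 152. With AC220, Nhp2 had 319 CPM in replicate 3, with the others at 250 to 262. AC220 replicate 1 stood apart in both Polr1a, at 75.4 CPM beside 55.5 to 58.8, and Polr1b, at 76.6 CPM beside 107 to 111, so the 2 subunits departed in opposite directions in that library. In GMP, Nat10 had 149 CPM in Combination replicate 3 (others 12.9 to 33.5), Dkc1 had 582 CPM in AC220 replicate 1 (152 to 210), and Polr1a had 205 CPM in AC220 replicate 3 (51.6 to 70.2). Polr1a also had 59.9 CPM in Lys05 replicate 2 (36.4 to 39.1), and Bop1 had 154 CPM in Vehicle replicate 1 (40.7 to 57.8). GMP Combination 3, AC220 1 and Vehicle 1 each had the weakest correlation within its own group.

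The log2 effect of AC220 differed between the cell types, as LSK minus GMP in edgeR's quasi-likelihood test over all libraries, for 13 members. It was lower in LSK for Nme1 at -3.34 (adjusted p = 4.6e-11), Nhp2 at -3.13 (adjusted p = 1.1e-07), Nop16 at -2.72 (adjusted p = 2.1e-06), Nop10 at -2.61 (adjusted p = 7.8e-08) and Polr1c at -2.39 (adjusted p = 8.2e-05). Wdr12 at -2.00 (adjusted p = 4.7e-04), Nop58 at -1.72 (adjusted p = 0.00182), Npm1 at -1.67 (adjusted p = 4.2e-04) and Gnl3 at -1.15 (adjusted p = 0.0301) were lower as well. It was higher in LSK for Noc2l at 3.70 (adjusted p = 4e-05), Nop2 at 2.86 (adjusted p = 0.00455), Tsr1 at 2.73 (adjusted p = 0.004) and Bop1 at 2.20 (adjusted p = 0.0173).

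For Combination the same difference was -2.96 for Nme1 (adjusted p = 2.2e-09), -2.25 for Nop16 (adjusted p = 6.3e-05), -2.17 for Nhp2 (adjusted p = 5.6e-05), -2.03 for Polr1c (adjusted p = 8.4e-04) and -1.87 for Wdr12 (adjusted p = 0.00137). It was -1.60 for Npm1 (adjusted p = 9.2e-04), -1.50 for Nop10 (adjusted p = 5.2e-04), -1.46 for Nop58 (adjusted p = 0.0105), -1.15 for Gnl3 (adjusted p = 0.0372) and -0.91 for Ncl (adjusted p = 0.0471). It was 3.63 for Noc2l (adjusted p = 8e-05), 3.30 for Nop2 (adjusted p = 0.00167), 2.02 for Tsr1 (adjusted p = 0.0397) and 1.81 for Pes1 (adjusted p = 0.0234). Both differences use the same Vehicle libraries of LSK and of GMP.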

How the results depend on the processing

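Totals of members called, both directions together, were compared between the alternatives. For AC220 or Combination against Vehicle and Combination against Lys05 in LSK, they stayed within 1.5 times of the reported total under every alternative. So did the totals of members whose AC220 or Combination effect differed between LSK and GMP. With 1 library left out at a time these totals were 30 to 34, 31 to 36, 31 to 36, 11 to 14 and 11 to 16 in that order. The totals hide moves between directions. With the length and GC offset, 12 members rose and 15 fell with AC220 against Vehicle in LSK, instead of 20 and 13. Smaller counts moved. For Combination against AC220 in LSK, where 1 member passed, DESeq2 called 7, voom 21 and the fit of only these groups 0, and leaving out 1 library gave 0 to 2 (0 without any of 8 libraries, 2 without Combination replicate 4). DESeq2 called 1 member for Lys05 against Vehicle in LSK and 1 for the interaction in LSK. In GMP, where none passed, DESeq2 called 1 with AC220, 5 with Combination against Vehicle, 1 with Combination against AC220 and 5 with Combination against Lys05; voom called 4 with Lys05, 1 with AC220 and 11 with Combination against Lys05, where leaving out the 3 weakly correlated libraries gave 3 and leaving out 1 library 0 to 1 (1 without Combination replicate 3). For LSK against GMP under Vehicle DESeq2 called 4, voom 15, the fit of only these groups 0 and the fit without the weakly correlated GMP libraries 5, and leaving out 1 library gave 0 to 3 (3 without GMP Combination replicate 3). The remaining leave-one-out counts were 0. Before TMM scaling, 1 CPM stands for 35.7 to 55.9 counts in a library, so depth limits chiefly the values under 1 CPM.

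Single members reversed under 1 alternative, the length and GC offset; the cause was not tested. For AC220 against Vehicle these were Nolc1 at -0.075, Nat10 at -0.31, Rrp12 at -0.43, Ppan at -0.003, Odc1 at -0.055, Rrp1b at -0.78 (adjusted p = 3.6e-04) and Npm1 at 0.34 (adjusted p = 0.0148). For Combination against Vehicle they were Nat10 at -0.072, Rrp12 at -0.074, Rrp1b at -0.34 and Npm1 at 0.56 (adjusted p = 3.9e-04). For Combination against Lys05 they were Nop14 at -0.52 (adjusted p = 0.0163), Bysl at -0.009, Rrp1b at -0.45 (adjusted p = 0.019) and Npm1 at 0.64 (adjusted p = 1.3e-04). Rrp1b also lost its call for Combination against Lys05 without any of 6 single libraries (adjusted p up to 0.135). Beside the Combination difference given above, RLE factors moved the median over all genes by more than 0.1 to 0.02 instead of 0.14 for Combination against Lys05 and to -0.04 instead of 0.06 for Combination against Vehicle in LSK, and to -0.03 instead of 0.09 for AC220 against Vehicle and 0.19 instead of 0.09 for Combination against AC220 in GMP. No paired analysis was possible because the labels number no replicates; the numbers used here follow accession order, only name libraries and pair nothing. Replicate 1 had the weakest correlation with its group in 6 of 8 groups, and a shared cause was not tested.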
